A study of Mus musculus with 14 samples.

Results

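Adult mouse brains lacking imprinting control regions were set against the wild-type brains of their own set, and what both knockouts shared in direction was described. The comparison took 8 of the series' 14 RNA sequencing libraries. It held 4 knockout and 4 wild-type libraries. KO2 (2 libraries) had lost both the H19-DMR and the IG-DMR, and KO3 (2 libraries) carried those deletions together with that of the Rasgrf1-DMR. A DMR, or differentially methylated region, is a stretch of DNA methylated on only one parental chromosome. Wild-type set 1 (WT1, 2 libraries) was the reference of KO2, and wild-type set 2 (WT2, 2 libraries) that of KO3. All 8 were labelled adult brain, and the labels give no age in weeks, strain, sex or brain region. The H19-DMR and IG-DMR deletions are shared by all 4 knockout libraries. The labels do not say it, but the study is known to have made both knockouts with haploid embryonic stem cells, to carry a pair of maternal genomes. If so, the deletions and the parental origin of the genomes cannot be told apart in any comparison with wild type. The labels do not say that the libraries of a group came from separate animals, so p-values measure the spread between these libraries, which may be technical.

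Imprinted genes are expressed from only one of the parental chromosomes, and methylation laid down in the egg or sperm at a control region decides which one. The H19-DMR governs the growth factor gene Igf2 and the non-coding RNA gene H19. The IG-DMR governs the Dlk1-Dio3 cluster, and the Rasgrf1-DMR governs Rasgrf1, which encodes a neuronal Ras activator. At these control regions the methylation comes from the sperm, so an embryo without a paternal genome lacks it.

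Levels were given as FPKM, fragments scaled to the length of the transcript and to the library's mapped fragments, so they can be compared between genes. The libraries held 12701 to 13204 genes at 1 FPKM or more, and the 2 libraries of a group correlated across genes with Pearson's r of 0.965 to 0.986. Read depth was unknown. Replicate 2 of KO3 stood apart, with r of 0.915 to the library it resembled least. The sets also differed from each other. In set 2, 9994 genes were listed at 0 in all 4 libraries, 5531 of which had a value above 0 in set 1, and no gene of set 2 had a maximum between 0 and 1.02 FPKM. The cerebellar granule cell gene Gabra6 stood at 29.1 to 59.1 FPKM in the 4 libraries of set 2 and at 0.127 FPKM or less in the 4 of set 1, so the pieces of brain differed in content between the sets although all carry the same tissue label. General neuronal markers were present in both, with summed levels of 3240.3 to 3565 FPKM in the knockouts and 2981 to 3681 FPKM in wild type. The Y-linked genes Ddx3y, Eif2s3y and Kdm5d were listed at 0 in all 8 libraries. Setting each knockout against its own set keeps the difference between sets out of the comparison, but not differences between the libraries of a group. Summed choroid plexus levels were 1427 and 212 FPKM in KO2 and 976 and 974 FPKM in KO3. Summed hypothalamic levels were 43.2 and 517 FPKM in KO2 and 175 and 433 FPKM in KO3.

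No gene passed the test for a difference shared by both knockouts. With the set as a block, limma called 0 of 13154 genes (0%) at an adjusted p of 0.05. The smallest adjusted p, 0.188, was shared by Tsc22d3, Isg20, Sgk1, Sh3bgr, Hbb-bs, Eps8l1 and Ube2l6, all 7 of them higher in both knockouts. At an unadjusted p under 0.05 there were 1507 genes (11.5%), of which 1102 (8.38%) were higher and 384 (2.92%) lower in both knockouts. A fit of all 14 libraries, which adds the 6 of stage E19.5 to the estimate of the spread, called 474 genes higher (3.6%) and 64 lower (0.487%) in both adult knockouts. A fit of the 8 adult libraries as 4 separate group means, chosen after the data were seen, called 0 genes, with 2446 at an unadjusted p under 0.05. Within 1 set, limma called 7 genes for KO2 against WT1 (0.0532%), with Sgk1, Serpina3n, Gm129 and Ipw higher and Rasgrf1, Pttg1 and Amd1 lower. It called 3 genes for KO3 against WT2 (0.0228%), with LOC100504703 higher and Snord17 and Tgoln2 lower, so 0 genes were called in both sets. Those among these genes that are not described below are named because they passed. Of the 538 calls of the 14-library fit, 0 were called from the adult libraries as group means, and the adult differences below are described as measured values and not as changes.

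The measured differences of the 2 knockouts from their wild-type sets had little in common. Only 5999 genes (45.6%) had the same sign in both sets, 3566 (27.1%) higher and 2433 (18.5%) lower. Across genes, which are not independent replicates, the difference of KO2 from WT1 and that of KO3 from WT2 had a Pearson's r of -0.04 and a Spearman's rho of -0.10. The 2 differences share no library. Both knockout libraries lay beyond both wild-type libraries in each set for 1230 genes that were higher (9.35%) and 518 that were lower (3.94%), against 1918 genes (14.6%) without overlap in opposite directions. Genes counted this way are called non-overlapping below. Of the 1748 non-overlapping genes with 1 direction, 70.4% were higher, but this split depended on scaling. It was 49.0% after quantile scaling and 52.3% after median-of-ratios scaling. Of all genes, 6.51% were non-overlapping and higher and 6.77% lower after quantile scaling, and 7.32% and 6.68% after median-of-ratios scaling. Counts of a list after scaling stand against these shares. Leaving out 1 library removes a condition and raises the counts. Without KO3 replicate 2, 13.3% of all genes were non-overlapping and higher and 5.06% lower. The higher count was 2006 without KO2 replicate 1, and the lower count became 894 when KO2 replicate 1 was left out, 938 when KO2 replicate 2 was, 833 for WT1 replicate 1, 1101 for WT1 replicate 2 and 877 for WT2 replicate 2. In 501 genes (3.81%) all 4 knockout libraries lay above all 4 wild-type libraries, and in 104 (0.791%) all 4 lay below. A test of the difference between the 2 knockouts, the interaction of knockout and set, called 0 genes, with 2722 (20.7%) at an unadjusted p under 0.05.

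**Figure D1:**
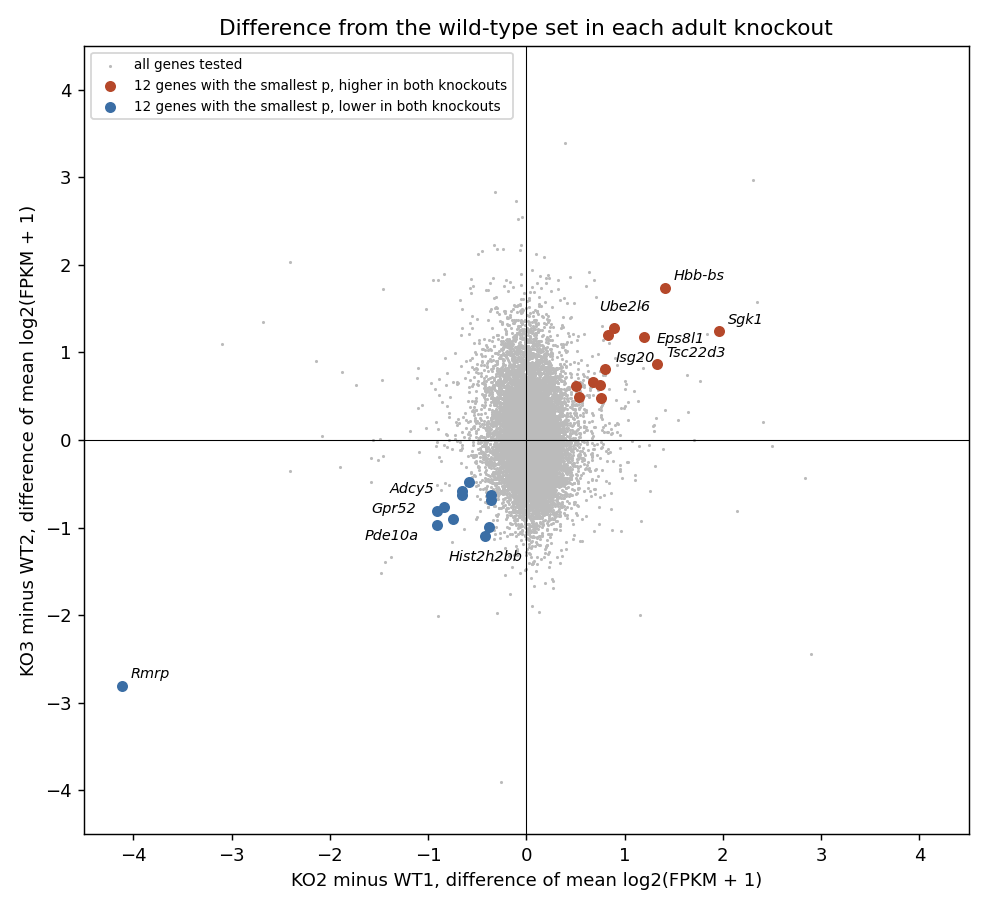
Each point is 1 gene, with the difference of mean log2(FPKM + 1) between KO2 and WT1 on the horizontal axis and between KO3 and WT2 on the vertical axis. Coloured points are the 12 non-overlapping genes with the smallest p in each direction, none of which passed the adjusted threshold, and 3 genes lie beyond the axes. The cloud of 13154 genes shows no slope (r -0.04), and Sgk1, Tsc22d3 and Hbb-bs lie at its upper right edge.

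Of 16 glucocorticoid response genes tested, 11 were higher in both adult knockouts and 1 was lower. Glucocorticoids are adrenal steroid hormones, and in the brain they act through a receptor that enters the nucleus and binds DNA at response elements. Sgk1, a kinase induced by these hormones, had 63.4 and 73.8 FPKM in KO2 and 66.4 and 88.2 FPKM in KO3, against 17.3 and 16.5 FPKM in WT1 and 43.1 and 23.2 FPKM in WT2. All 4 knockout libraries lay above all 4 wild-type libraries. The log2 difference was 1.60 ± 0.22 (SE, blocked by set), 1.96 in set 1 and 1.25 in set 2, with an adjusted p of 0.188 in limma's blocked fit. In set 1 alone Sgk1 rose, with an adjusted p of 0.0458 in limma, and in set 2 alone it did not pass (0.253). Tsc22d3, which encodes the glucocorticoid-induced leucine zipper protein, had 61.9 and 52.2 FPKM in KO2 and 62.0 and 76.7 FPKM in KO3, against 20.7 and 23.3 FPKM in WT1 and 38.6 and 36.1 FPKM in WT2. It also separated completely, with a log2 difference of 1.10 ± 0.14. In both genes the knockouts reached similar levels in the 2 sets, and the wild-type levels were lower in set 1 than in set 2.

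Of the 16 glucocorticoid response genes tested, 7 were non-overlapping and higher (43.8%, against 9.35% of all genes tested) and 1 was lower (6.25%, against 3.94%). The median log2 difference of the list was 0.72, with 0.61 in set 1 and 0.68 in set 2, against 0.01 over all genes. Under the alternatives that kept both sets the median ranged from 0.33 to 0.90. The 14-library fit called 7 of the 16 higher and 0 lower, against 3.6% and 0.487% of all genes. The counts were 7 and 1 after both scalings and without KO3 replicate 2. In these settings 6.51% to 13.3% of all genes were higher and 5.06% to 6.77% lower. Sult1a1, a sulfotransferase, had 10.2 and 7.80 FPKM in KO2 and 6.96 and 11.4 FPKM in KO3, against 5.24 and 4.58 FPKM in WT1 and 4.46 and 5.05 FPKM in WT2. Map3k6, a stress kinase, averaged 1.86 ± 0.61 FPKM in the knockouts and 0.779 ± 0.132 FPKM in wild type (SD, n = 4 each). The remaining genes named here were chosen after their values were seen. Fkbp5, a co-chaperone that restrains the glucocorticoid receptor, had 14.4 and 11.5 FPKM in KO2 and 8.56 and 12.8 FPKM in KO3, against 7.03 and 7.20 FPKM in WT1 and 7.25 and 8.21 FPKM in WT2. Pdk4, which shuts down pyruvate oxidation, and the metallothionein gene Mt2 were also non-overlapping and higher, with log2 differences of 0.62 and 1.15. The lower gene was Nr3c1, which encodes the glucocorticoid receptor itself. It had 14.6 and 15.9 FPKM in KO2 and 20.9 and 13.9 FPKM in KO3, against 17.0 and 15.9 FPKM in WT1 and 22.2 and 21.2 FPKM in WT2, and the upper KO2 and the lower WT1 library were equal to 3 digits.

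The promoter of Sgk1 is shown because the gene had the largest difference among those listed as glucocorticoid-induced with a complete separation. The table of promoters, from RefSeq on GRCm38.p6, holds 6 starts for Sgk1, and 1 of them has the letters of a full glucocorticoid response element, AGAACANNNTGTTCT, in the 250 bases before it (chr10:21993640-21993889, plus strand). Capitals mark the match, 189 to 175 bases before the start.
Sgk1: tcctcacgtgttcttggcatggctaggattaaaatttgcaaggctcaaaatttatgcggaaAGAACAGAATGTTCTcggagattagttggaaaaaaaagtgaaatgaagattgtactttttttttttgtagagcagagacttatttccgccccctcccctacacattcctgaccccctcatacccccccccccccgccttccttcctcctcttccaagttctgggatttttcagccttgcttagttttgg
Searched on both strands, the letters occur in 3 of 32851 promoters (0.00913%). Among the glucocorticoid response genes with a promoter in the table, 1 of 14 had them. The match is a description of the sequence and was not tied to the difference in level.

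**Figure D2:**
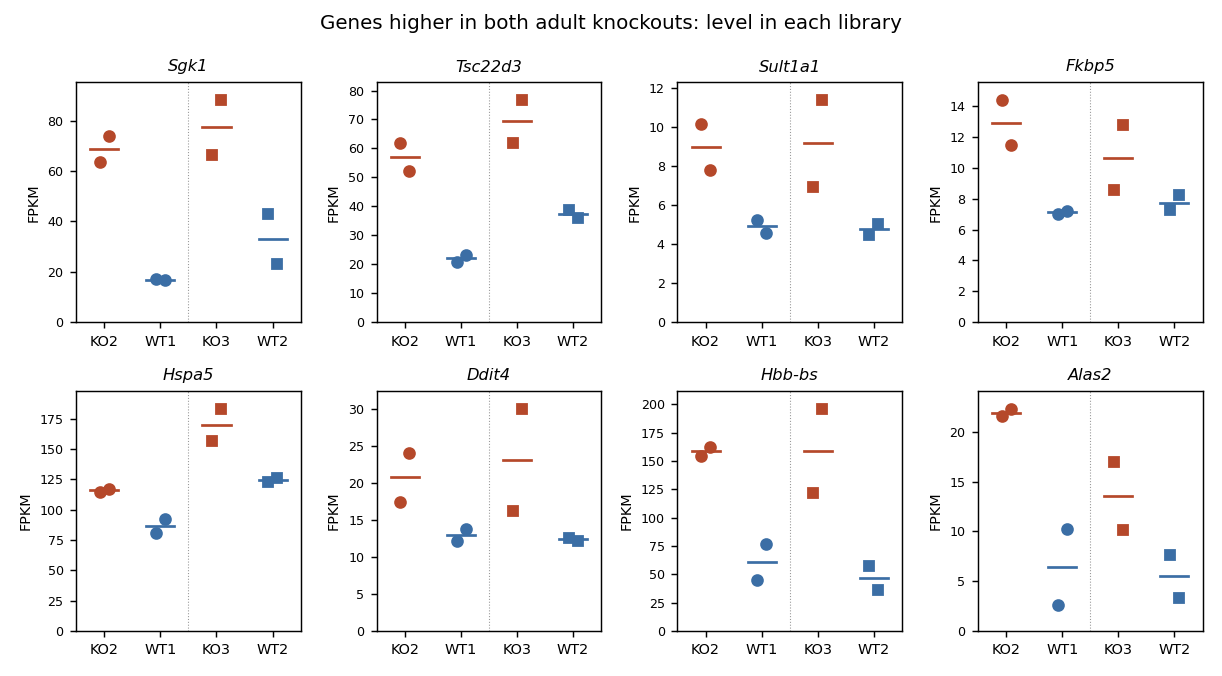
Level in FPKM (vertical axes, from 0) of 8 genes in each library, with circles for set 1 (KO2, WT1), squares for set 2 (KO3, WT2) and a line at each group's mean of 2 libraries. In every panel both knockout libraries lie above both wild-type libraries of their set, and in Hspa5 and Alas2 knockout and wild-type levels overlap between sets.

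Genes of the unfolded protein response, which adjusts the folding capacity of the endoplasmic reticulum, mostly lay on the higher side. Of 15 tested, 13 were higher in both sets and 0 lower, and 8 were non-overlapping and higher (53.3%, against 9.35% of all genes). Their median log2 difference was 0.42, with 0.29 in set 1 and 0.41 in set 2. The count was 4 after quantile scaling (26.7%, against 6.51% of all genes) and 10 after median-of-ratios scaling (66.7%, against 7.32%). The 14-library fit called 6 of the 15 higher, against 3.6% of all genes. Hspa5, the main chaperone of the reticulum, had 115 and 117 FPKM in KO2 and 156 and 183 FPKM in KO3, against 80.5 and 92.3 FPKM in WT1 and 123 and 126 FPKM in WT2. Each knockout lay above its own set, while KO2 lay below WT2. The log2 difference was nearly equal in the sets, 0.42 in set 1 and 0.44 in set 2. Herpud1, which acts in the removal of misfolded proteins, and Manf, a secreted stress-induced protein, were higher by 0.46 and 0.42 on the log2 scale. Xbp1, a transcription factor of the response, was higher by 0.93 in set 1 and by 0.18 in set 2, where its libraries overlapped. Atf4, the transcription factor of the integrated stress response, was chosen after its values were seen and had 51.9 and 53.1 FPKM in KO2 and 77.5 and 95.6 FPKM in KO3, against 46.7 and 44.4 FPKM in WT1 and 53.7 and 49.1 FPKM in WT2.

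The promoters of Hspa5 and Hsp90b1 are shown because these abundant chaperone genes shared the direction of the list and carry the endoplasmic reticulum stress element, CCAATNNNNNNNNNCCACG, known to bind factors of the unfolded protein response. Capitals mark the matches on either strand, which begin 65 bases before the start in Hspa5 (chr2:34771840-34772089, plus strand) and 212 and 107 bases before it in Hsp90b1 (chr10:86705445-86705694, minus strand).
Hspa5: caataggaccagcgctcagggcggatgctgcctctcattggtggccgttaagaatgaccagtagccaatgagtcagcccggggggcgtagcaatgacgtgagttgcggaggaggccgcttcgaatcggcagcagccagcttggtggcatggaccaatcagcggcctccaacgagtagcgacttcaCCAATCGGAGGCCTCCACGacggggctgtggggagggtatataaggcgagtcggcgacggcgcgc
Hsp90b1: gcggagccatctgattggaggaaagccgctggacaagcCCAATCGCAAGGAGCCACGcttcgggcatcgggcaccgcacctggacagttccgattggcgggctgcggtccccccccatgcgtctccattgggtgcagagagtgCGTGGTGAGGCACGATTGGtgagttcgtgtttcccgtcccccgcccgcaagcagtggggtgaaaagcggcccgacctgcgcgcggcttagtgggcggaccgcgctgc
These letters occur in 37 of 32851 promoters (0.113%) and in 3 of the 14 genes of the list that have a promoter in the table, Creld2 being the other. Hsp90b1 and Creld2 were chosen after their values were seen. Hsp90b1 had 131 and 132 FPKM in KO2 and 219 and 269 FPKM in KO3, against 108 and 116 FPKM in WT1 and 157 and 168 FPKM in WT2. Creld2, a secreted folding factor, had 14.5 and 15.4 FPKM in KO2 and 13.8 and 19.45 FPKM in KO3, against 10.3 and 12.3 FPKM in WT1 and 10.04 and 12.1 FPKM in WT2. All 4 knockout libraries lay above all 4 wild-type libraries for Creld2.

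Heat shock chaperones had a larger difference in set 2 than in set 1. Of 12 tested, 8 had the same direction in both sets, all higher, and 4 were non-overlapping (33.3%, against 9.35%). After quantile scaling 2 were non-overlapping (16.7%, against 6.51%). The median log2 difference was 0.09 in set 1 and 0.58 in set 2. Hsp90aa1, the inducible cytosolic HSP90, had 417 and 424 FPKM in KO2 and 694 and 905 FPKM in KO3, against 339 and 326 FPKM in WT1 and 450 and 492 FPKM in WT2. The mitochondrial chaperones Hspe1 and Hspd1 overlapped with WT1 in set 1. Hspa1b, an inducible HSP70, had a log2 difference of 0.46.

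Genes of the hypoxia response, which are controlled by the oxygen-sensitive HIF factors, were higher in both knockouts in 8 of 13 cases and lower in 0. Of the 13, 7 were non-overlapping (53.8%, against 9.35%), and 5 after quantile scaling (38.5%, against 6.51%). The median log2 difference was 0.42, with 0.18 in set 1 and 0.45 in set 2, and over the alternatives that kept both sets it ranged from 0.13 to 0.47. Adm, the vasodilator adrenomedullin, had 1.92 and 2.11 FPKM in KO2 and 1.91 and 2.76 FPKM in KO3, against 0.818 and 1.11 FPKM in WT1 and 1.60 and 1.06 FPKM in WT2. Ddit4, an inhibitor of the growth kinase mTORC1 that glucocorticoids also induce, had 17.5 and 24.1 FPKM in KO2 and 16.2 and 30.1 FPKM in KO3, against 12.2 and 13.8 FPKM in WT1 and 12.6 and 12.2 FPKM in WT2. Both genes separated completely. Slc2a1, the glucose transporter of the blood-brain barrier, was higher by 0.55 in set 1 and 0.65 in set 2. Txnip, a regulator of glucose uptake, was higher by 0.92 and 0.45. Pgk1, a glycolytic enzyme, and Hif3a, an HIF subunit that glucocorticoids also induce, were chosen after their values were seen and had log2 differences of 0.46 and 0.52. Vegfa, Ldha and Egln3, targets of the same factors chosen after their values were seen, had log2 differences of -0.01, 0.13 and 0.02.

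Globin and heme genes were higher in every knockout library than in the wild-type libraries of its set. The list of red cell genes held 6 tested genes, while Hba-a2 was at 0.01 FPKM or less in all 8 libraries and was not tested, and all 6 were non-overlapping and higher (100%, against 9.35%), also after both scalings and without KO3 replicate 2. Its summed level was 850, 881, 1152 and 1271 FPKM in the knockouts and 108, 512, 203 and 136 FPKM in wild type, a log2 difference of 2.36. The exact permutation test within sets gave p = 0.0556 (2-sided, n = 4 each), the smallest of its 36 relabellings. Hbb-bs, a beta-globin, had 155 and 163 FPKM in KO2 and 121 and 196 FPKM in KO3, against 45.2 and 77.2 FPKM in WT1 and 57.1 and 36.2 FPKM in WT2. All 4 knockout libraries lay above all 4 wild-type libraries, with a log2 difference of 1.58 ± 0.23. Alas2, the first enzyme of heme synthesis in red cells, had 21.6 and 22.3 FPKM in KO2 and 17.0 and 10.1 FPKM in KO3, against 2.65 and 10.3 FPKM in WT1 and 7.66 and 3.29 FPKM in WT2. Hba-a1, an alpha-globin, had 335 and 388 FPKM in KO2 and 476 and 795 FPKM in KO3, against 21.7 and 233 FPKM in WT1 and 104 and 57.5 FPKM in WT2. The globin genes have near-identical copies between which reads can be split, so the level of any single one is uncertain. This touches Hbb-b1 above all, whose wild-type levels lay between 0.00242 and 112 FPKM. In a bulk sample, more cells of a type and more RNA per cell cannot be told apart. How much of this is blood left in the tissue was not tested.

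The promoter of Hbb-bs is shown because the gene had the smallest p among the globins, with a match to the CACCC box, CCACACCC, in capitals, 93 to 86 bases before the start (chr7:103827929-103828178, minus strand). That box is known as the binding motif of the red cell factor KLF1.
Hbb-bs: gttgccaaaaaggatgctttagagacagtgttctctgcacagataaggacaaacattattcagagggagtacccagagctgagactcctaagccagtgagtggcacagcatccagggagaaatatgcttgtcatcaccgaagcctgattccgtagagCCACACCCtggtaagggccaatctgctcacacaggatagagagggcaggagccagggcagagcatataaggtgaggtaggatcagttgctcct
These letters are common, occurring in 1050 of 32851 promoters (3.2%) on either strand.

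Markers of blood-borne immune cells lay mostly on the higher side, and none passed the adjusted threshold. Of the 7 tested genes of blood-borne immune cells, 6 were higher in both sets, 0 were lower, and 3 were non-overlapping (42.9%, against 9.35%). The MHC class II gene H2-Eb1 had 1.07 and 1.28 FPKM in KO2 and 2.67 and 2.15 FPKM in KO3, against 0.302 and 0.426 FPKM in WT1 and 0.930 and 1.40 FPKM in WT2. Cd74, the class II invariant chain, had 4.96 and 6.46 FPKM in KO2 and 13.8 and 14.4 FPKM in KO3, against 3.66 and 3.82 FPKM in WT1 and 9.20 and 8.57 FPKM in WT2. Lyz2, a lysozyme of myeloid cells, had 9.67 and 13.7 FPKM in KO2 and 12.6 and 16.1 FPKM in KO3, against 6.86 and 7.19 FPKM in WT1 and 9.21 and 7.73 FPKM in WT2. The log2 differences of these 3 genes were 0.67, 0.55 and 0.67, and nearly the same in each set. The neutrophil gene S100a8, chosen after its values were seen, stood at 462 FPKM in KO3 replicate 2, against 10.7 FPKM in KO3 replicate 1 and 26.6 and 38.3 FPKM in KO2. Wild-type levels of S100a8 were 47.7, 11.8, 4.80 and 7.48 FPKM. The red cell genes above were higher in the same libraries, and their part in these differences was not tested.

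MHC class I and acute inflammation genes had the same direction with more spread. Of 10 class I genes, 7 were higher in both sets, 0 lower and 3 non-overlapping (30%, against 9.35%), with a median log2 difference of 0.34. H2-D1, a classical class I chain, had 24.4 and 34.3 FPKM in KO2 and 33.2 and 44.6 FPKM in KO3, against 20.04 and 18.3 FPKM in WT1 and 26.3 and 31.0 FPKM in WT2. H2-K1, its fellow class I chain, had a log2 difference of 0.84 but overlapped with WT2 in set 2. Class I genes are a near-identical family, so reads can be split between H2-D1, H2-K1, H2-Q4 and H2-Q7. Of 10 inflammation genes, 6 were higher and 2 lower in both sets, and 2 were non-overlapping, both higher (20%). Nfkbia, the inhibitor of NF-kappaB, which glucocorticoids also induce, had 15.1 and 21.3 FPKM in KO2 and 23.5 and 78.2 FPKM in KO3, against 10.6 and 10.5 FPKM in WT1 and 14.6 and 11.8 FPKM in WT2. The transcription factor gene Cebpd had 2.50 and 3.19 FPKM in KO2 and 3.19 and 10.97 FPKM in KO3, against 1.04 and 1.49 FPKM in WT1 and 2.43 and 1.40 FPKM in WT2. In both, KO3 replicate 2 was far above the other knockout libraries, and each knockout library lay above the wild-type libraries of its set. Serpina3n, an acute-phase protease inhibitor made by reactive astrocytes, had 36.7 and 34.9 FPKM in KO2 and 34.5 and 16.7 FPKM in KO3, against 9.86 and 11.7 FPKM in WT1 and 13.9 and 25.9 FPKM in WT2. It was separate in set 1 and overlapped in set 2.

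Interferon-stimulated genes did not form a shared group. Of 15 tested, 2 were higher and 7 lower in both sets, none was non-overlapping in either direction, and the median log2 difference was -0.18. A pair of genes known to respond to interferon but not on that list were among the 7 with the smallest adjusted p. Isg20, an RNA exonuclease, had 3.14 and 3.29 FPKM in KO2 and 2.18 and 2.54 FPKM in KO3, against 1.496 and 1.34 FPKM in WT1 and 0.792 and 1.06 FPKM in WT2. Ube2l6, the enzyme that conjugates the ubiquitin-like ISG15, had 12.3 and 12.04 FPKM in KO2 and 12.8 and 9.60 FPKM in KO3, against 7.15 and 5.23 FPKM in WT1 and 4.70 and 3.34 FPKM in WT2. Both separated completely, with log2 differences of 0.80 ± 0.11 and 1.09 ± 0.16.

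The other genes with the smallest p on the higher side belong to no common pathway of the lists. Eps8l1, which encodes an actin regulator, had 2.82 and 2.72 FPKM in KO2 and 1.92 and 1.80 FPKM in KO3, against 1.09 and 0.300 FPKM in WT1 and 0.540 and 0.0466 FPKM in WT2. Sh3bgr, which encodes a small SH3-binding protein, had 1.60 and 1.68 FPKM in KO2 and 7.80 and 11.6 FPKM in KO3, against 0.593 and 0.373 FPKM in WT1 and 3.85 and 3.32 FPKM in WT2. Its sets lay apart, and within each the knockouts lay above wild type. The histone variant gene H2afv, Fam83d, which acts at the mitotic spindle, the mitochondrial protein gene Nipsnap1 and Esf1, which acts in ribosome biogenesis, completed the 12, with log2 differences of 0.51, 0.69, 0.62 and 0.56. None passed the adjusted threshold.

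Of 12 genes of striatal projection neurons tested, 7 were lower in both knockouts and 0 were higher, while 4 were non-overlapping in opposite directions. These GABA neurons are the output cells of the striatum and carry dopamine receptors coupled to cyclic AMP. Pde10a, the phosphodiesterase that breaks down cyclic AMP in them, had 17.8 and 28.6 FPKM in KO2 and 20.3 and 11.6 FPKM in KO3, against 43.2 and 43.4 FPKM in WT1 and 28.6 and 33.7 FPKM in WT2. All 4 knockout libraries lay below all 4 wild-type libraries, by a log2 difference of -0.94 ± 0.20, equal in both sets within its error (-0.91 and -0.97). Adcy5, the striatal adenylyl cyclase, had 50.2 and 77.7 FPKM in KO2 and 37.2 and 21.8 FPKM in KO3, against 110 and 115 FPKM in WT1 and 50.1 and 48.7 FPKM in WT2. The orphan receptor gene Gpr52, which is expressed with Drd2 in the striatum, had 5.11 and 9.14 FPKM in KO2 and 4.70 and 2.59 FPKM in KO3, against 13.6 and 14.01 FPKM in WT1 and 6.45 and 7.45 FPKM in WT2. Pde10a was a member of the striatal list, whereas Adcy5 and Gpr52 were named for their small p alone. All 3 had an adjusted p of 0.417.

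Of the 12 striatal genes tested, 5 were non-overlapping and lower (41.7%, against 3.94% of all genes) and 0 were higher. After quantile scaling the count was 4 (33.3%, against 6.77% of all genes). It was 5 after median-of-ratios scaling (against 6.68%) and without KO3 replicate 2 (against 5.06%). The 14-library fit called 1 of the 12 lower, against 0.487% of all genes. The median log2 difference was -0.53, with -0.91 in set 1 and -0.18 in set 2. Adora2a, the adenosine receptor of indirect pathway neurons, had 7.73 and 15.3 FPKM in KO2 and 10.6 and 8.81 FPKM in KO3, against 32.9 and 33.1 FPKM in WT1 and 10.7 and 12.3 FPKM in WT2. Drd1a, the D1 dopamine receptor of direct pathway neurons, had 4.66 and 8.80 FPKM in KO2 and 8.31 and 4.39 FPKM in KO3, against 11.7 and 12.8 FPKM in WT1 and 8.78 and 9.06 FPKM in WT2. The separation in set 2 was narrow in both, with KO3 replicate 1 just below WT2. Drd2 and Gpr6, which mark the indirect pathway and were chosen after their values were seen, had log2 differences of -0.65 and -0.71. Pdyn, the dynorphin precursor gene, had a log2 difference of -0.44 and overlapped in set 1.

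The summed level of the striatal list did not follow. It was 288 and 549 FPKM in KO2 and 525 and 688 FPKM in KO3, against 783 and 837 FPKM in WT1 and 425 and 483 FPKM in WT2, so it was lower in KO2 and higher in KO3 than in wild type. The exact permutation test gave p = 0.611 (2-sided, within sets, n = 4 each). The labels do not say which parts of the brain each sample held, so less striatum in a sample and less RNA of these genes per cell cannot be told apart. Of 13 genes of inhibitory neurons, 2 were non-overlapping and higher (15.4%, against 9.35% of all genes) and 1 lower (7.69%, against 3.94%). Calb2 and Pvalb, calcium-binding proteins of interneurons, were higher by 0.86 and 0.83 on the log2 scale, and Lhx6, an interneuron transcription factor, had a log2 difference of -0.25. Pvalb is also a Purkinje cell gene, and its levels were 62.5 and 88.1 FPKM in KO2 and 248 and 475 FPKM in KO3, against 53.3 and 50.2 FPKM in WT1 and 142 and 168 FPKM in WT2.

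**Figure D3:**
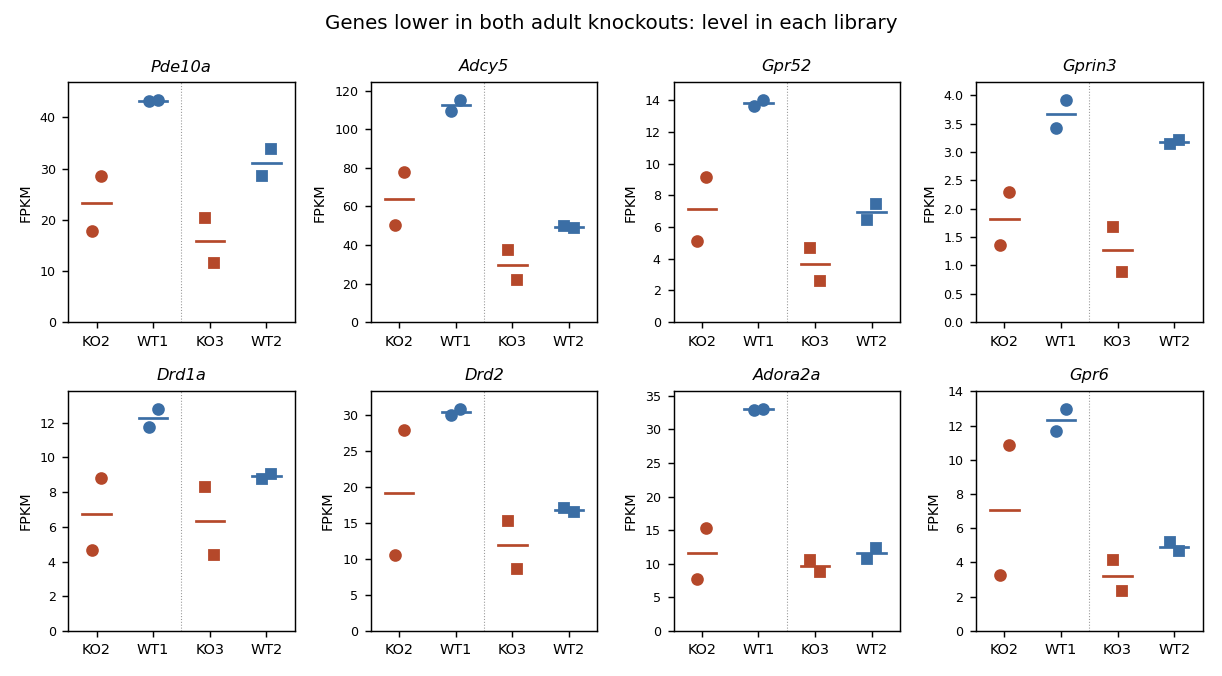
Level in FPKM (vertical axes, from 0) of 8 genes in each library, with circles for set 1 (KO2, WT1), squares for set 2 (KO3, WT2) and a line at each group's mean of 2 libraries. Both knockout libraries lie below both wild-type libraries of their set in every panel. The gap in set 2 is narrow for Drd1a, Drd2, Adora2a and Gpr6.

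Other genes with the smallest p on the lower side were mostly of low level. Gprin3, which encodes a G protein-regulated protein of neurites, had 1.35 and 2.30 FPKM in KO2 and 1.68 and 0.880 FPKM in KO3, against 3.43 and 3.91 FPKM in WT1 and 3.15 and 3.22 FPKM in WT2. Sema5b, an axon guidance semaphorin, had 4.67 and 4.89 FPKM in KO2 and 2.09 and 2.1 FPKM in KO3, against 7.80 and 7.49 FPKM in WT1 and 3.36 and 3.25 FPKM in WT2. Gprin3 separated completely, and Sema5b separated within each set, with replicates close together. Ptger1, a prostaglandin E receptor, and Hps1, which acts in the making of lysosome-related organelles, had log2 differences of -0.62 and -0.49. Actl10, the histone gene Hist2h2bb, Gm765 and D430036J16Rik lay between -0.76 and -0.52. Rmrp, the RNA of an RNase complex that is not known to be polyadenylated, had 5.32 and 3.26 FPKM in KO2 and 1.85 and 14.7 FPKM in KO3, against 29.5 and 266 FPKM in WT1 and 34.5 and 60.5 FPKM in WT2. It is a short transcript in libraries made after poly(A) selection, and its wild-type levels spread widely.

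At the deleted control regions, shared differences were small, and the large difference of Rasgrf1 lay in KO2. The Rasgrf1-DMR was deleted in KO3 and not in KO2. Rasgrf1, expressed from the paternal chromosome, had 19.7 and 14.8 FPKM in KO2 and 104 and 85.3 FPKM in KO3, against 89.5 and 100 FPKM in WT1 and 149 and 97.2 FPKM in WT2. It lay far below wild type in KO2 and overlapped with wild type in KO3, so the log2 difference was -2.41 in set 1 and -0.35 in set 2. In set 1 alone Rasgrf1 was lower, with an adjusted p of 0.0458 in limma. The interaction of knockout and set had an unadjusted p of 0.00018 in limma. Adjusted over all genes tested it was 0.19, so the interaction did not pass. Its neighbour Ankrd34c had differences of -0.16 and -0.44 on the log2 scale, without overlap in set 2.

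Igf2, the paternally expressed growth factor at the H19-DMR, had 19.3 and 14.4 FPKM in KO2 and 22.2 and 18.4 FPKM in KO3, against 19.4 and 23.3 FPKM in WT1 and 19.8 and 27.9 FPKM in WT2. The log2 difference was -0.27 ± 0.15, with overlap in set 2 (adjusted p 0.471). In KO2, both libraries lay below WT1. H19, the maternally expressed non-coding RNA, was too low to be tested: it had 0.225 and 0.097 FPKM in KO2, against 0.929 and 0.672 FPKM in WT1, and was listed at 0 in all 4 libraries of set 2. Of 21 genes of IGF and insulin signalling, 1 was higher and 3 lower in both sets, and 1 was non-overlapping and lower (4.76%, against 3.94% of all genes). Akt2, a kinase downstream of the insulin receptor, was the non-overlapping one, with 32.6 and 30.6 FPKM in KO2 and 21.3 and 15.6 FPKM in KO3, against 45.8 and 36.8 FPKM in WT1 and 28.5 and 27.6 FPKM in WT2. The Igf2-binding protein gene Igfbp3 had a log2 difference of 0.22.

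At the IG-DMR cluster, 7 genes were tested and 3 had the same direction in both sets. Rtl1, a retrotransposon-derived gene expressed from the paternal chromosome, had 1.64 and 2.08 FPKM in KO2 and 0.930 and 1.67 FPKM in KO3, against 1.85 and 2.41 FPKM in WT1 and 1.68 and 1.62 FPKM in WT2. Dio3, which inactivates thyroid hormone, had 1.32 and 0.612 FPKM in KO2 and 1.01 and 1.53 FPKM in KO3, against 0.683 and 0.884 FPKM in WT1 and 0.816 and 1.10 FPKM in WT2. Rian, a maternally expressed non-coding RNA, had 146 and 164 FPKM in KO2 and 157 and 121 FPKM in KO3, against 157 and 166 FPKM in WT1 and 155 and 169 FPKM in WT2. All 3 overlapped between knockout and wild type in at least 1 set. Meg3, Mirg, Dlk1 and Begain, and near Rasgrf1 the genes Ctsh and Tmed3, had opposite signs in the 2 sets.

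**Figure D4:**
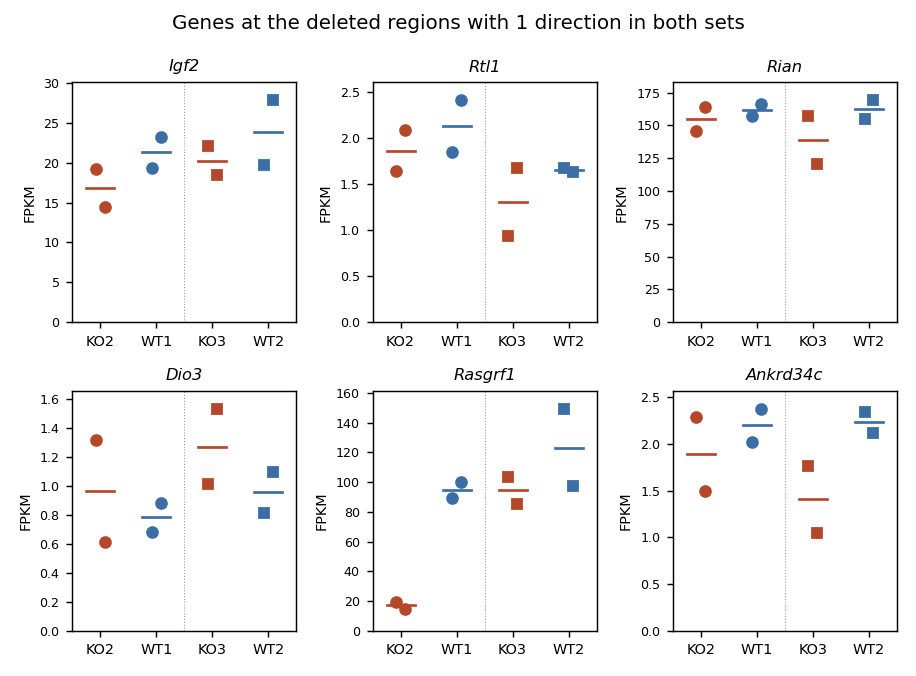
Level in FPKM (vertical axes, from 0) of the 6 tested genes at the deleted regions that had 1 direction in both sets, with circles for set 1 (KO2, WT1), squares for set 2 (KO3, WT2) and a line at each group's mean of 2 libraries. Rasgrf1 stands at 19.7 and 14.8 FPKM in KO2 and at 85.3 FPKM or more elsewhere, and the other 5 genes differ little between groups.

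Imprinted genes elsewhere in the genome showed little in common between the knockouts. Of 19 paternally expressed genes tested, 4 were higher and 1 lower in both sets and 0 were non-overlapping in either direction, with a median log2 difference of 0.09. Zrsr1, a splicing factor gene, was higher by 0.53 in set 1 and 0.20 in set 2. Peg10, a retrotransposon-derived gene, had 3.79 and 14.1 FPKM in KO2 and 9.79 and 6.40 FPKM in KO3, against 8.37 and 15.9 FPKM in WT1 and 10.9 and 10.2 FPKM in WT2. Of 26 maternally expressed genes, 3 were non-overlapping and higher (11.5%, against 9.35%) and 1 lower (3.85%, against 3.94%), shares close to those of all genes. Cdkn1c, a brake on the cell cycle, had 4.16 and 4.37 FPKM in KO2 and 5.85 and 7.98 FPKM in KO3, against 3.86 and 3.31 FPKM in WT1 and 3.80 and 3.40 FPKM in WT2. It separated completely. The lower gene was Dhcr7, of cholesterol synthesis, with a log2 difference of -0.45.

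The median log2 difference was -0.07 for astrocyte genes, -0.06 for oligodendrocyte and myelin genes, -0.04 for oligodendrocyte precursor genes and 0.24 for microglial genes. None of 15 oligodendrocyte and myelin genes was non-overlapping in either direction, and their summed levels were 2211 to 3321 FPKM in the knockouts and 1870 to 3513 FPKM in wild type. Of 12 astrocyte genes, 1 was non-overlapping and higher (8.33%, against 9.35% of all genes) and 2 were lower (16.7%, against 3.94%). In both sets 2 of the 12 were higher and 6 lower, against 27.1% and 18.5% of all genes. Sox9, an astrocyte transcription factor, had 7.22 and 9.54 FPKM in KO2 and 7.63 and 5.32 FPKM in KO3, against 11.2 and 10.1 FPKM in WT1 and 9.10 and 9.96 FPKM in WT2. Of 11 oligodendrocyte precursor genes, 6 were lower and 0 higher in both sets, against 18.5% and 27.1% of all genes. The proteoglycan gene Cspg4 was the 1 non-overlapping gene (9.09%, against 3.94%), with a log2 difference of -0.32. Of 13 microglial genes, 1 was non-overlapping and higher (7.69%, against 9.35%): Tyrobp, a signalling adaptor, by 0.27 in set 1 and 1.08 in set 2. The microglial receptor genes Cx3cr1 and P2ry12, chosen after their values were seen, had log2 differences of -0.28 and -0.15.

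Endothelial genes split. Of 14, 2 were non-overlapping and higher, 14.3% against 9.35% of all genes, and 2 were lower, 14.3% against 3.94%. Mfsd2a, the lipid transporter of the blood-brain barrier, had 18.9 and 20.2 FPKM in KO2 and 15.4 and 19.7 FPKM in KO3, against 13.6 and 14.5 FPKM in WT1 and 12.3 and 10.9 FPKM in WT2. Kdr, the main VEGF receptor, had 1.65 and 2.59 FPKM in KO2 and 2.12 and 0.581 FPKM in KO3, against 2.78 and 2.78 FPKM in WT1 and 2.91 and 3.05 FPKM in WT2. Both separated completely, in opposite directions, as did the transporter Slc2a1 on the higher side. Cdh5, the endothelial cadherin, was lower with a log2 difference of -0.31 and was chosen after its values were seen. Of 15 genes of meninges, fibroblasts and collagens, 3 were non-overlapping and lower (20%, against 3.94%). Without KO3 replicate 2 this count was 7 (46.7%, against 5.06%), and after quantile scaling it was 1 (6.67%, against 6.77%). Col1a1, the fibrillar collagen chain, had 2.38 and 2.78 FPKM in KO2 and 1.45 and 1.03 FPKM in KO3, against 16.3 and 5.59 FPKM in WT1 and 1.46 and 2.93 FPKM in WT2. Dcn, a collagen-binding proteoglycan of the same list, had a log2 difference of 0.34.

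**Figure D5:**
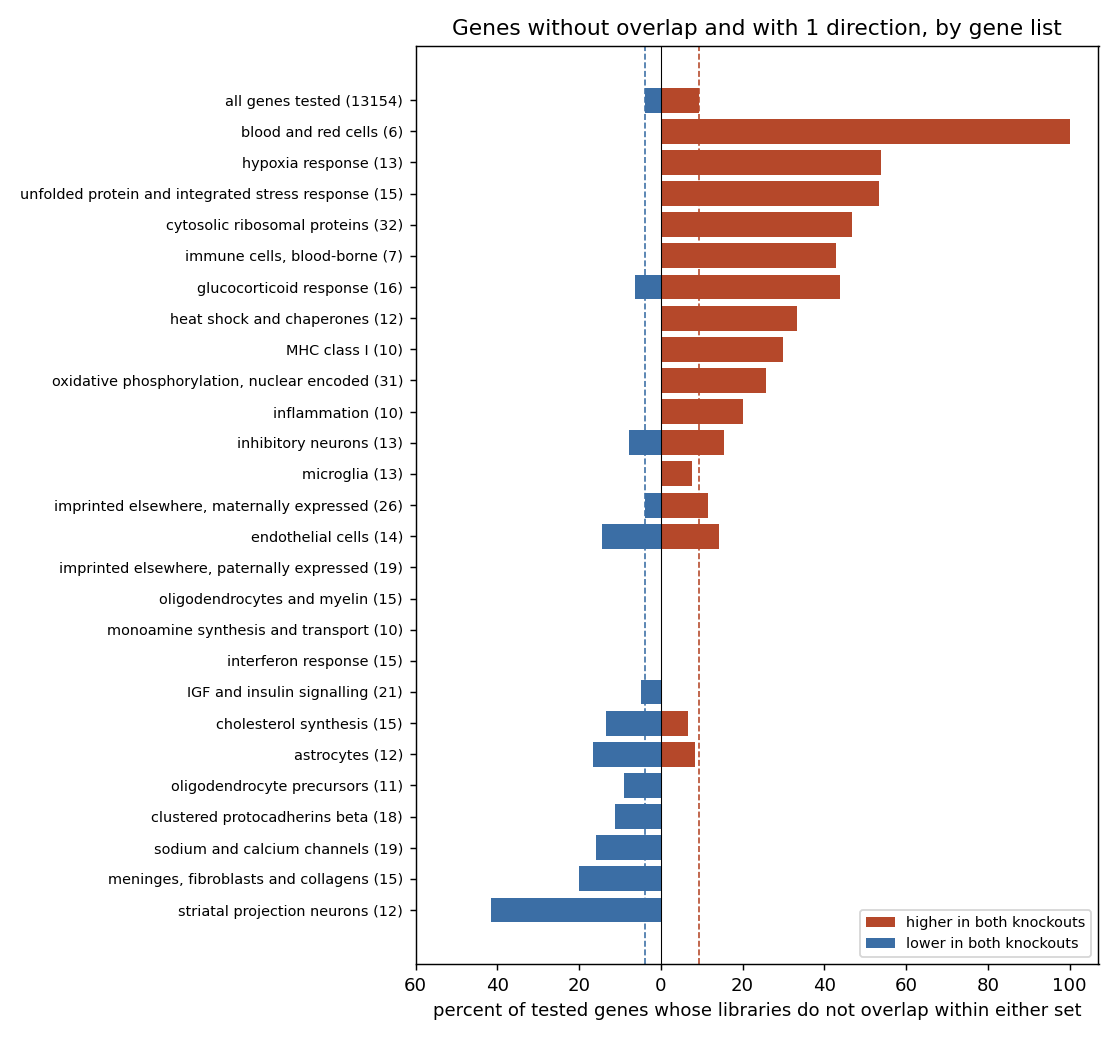
Percent of the tested genes of each list (number tested in parentheses) whose knockout libraries lie above (right) or below (left) the wild-type libraries in both sets. Dashed lines mark all 13154 genes, 9.35% higher and 3.94% lower. Red cell, hypoxia and unfolded protein response genes reach furthest to the right (100%, 53.8% and 53.3%), and striatal genes furthest to the left (41.7%).

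Ribosomal protein and respiratory chain genes shared a direction in many cases but not a size. Of 32 cytosolic ribosomal protein genes, 15 were non-overlapping and higher (46.9%, against 9.35%), but the median log2 difference was 0.05 in set 1 and 1.06 in set 2. The count was 8 after quantile scaling (25%, against 6.51%) and 7 after median-of-ratios scaling (21.9%, against 7.32%). Rpl5, a large subunit protein, had 128 and 132 FPKM in KO2 and 133 and 166 FPKM in KO3, against 118 and 105 FPKM in WT1 and 96.5 and 89.0 FPKM in WT2. Of 31 nuclear genes of oxidative phosphorylation, 8 were non-overlapping and higher (25.8%), and 5 after median-of-ratios scaling (16.1%, against 7.32%). Their median log2 difference was 0.02 in set 1 and 1.14 in set 2. Uqcrh, a subunit of complex III, had 349 and 371 FPKM in KO2 and 419 and 752 FPKM in KO3, against 333 and 323 FPKM in WT1 and 179 and 209 FPKM in WT2. In both genes WT2 lay below WT1, and KO3 replicate 2 had the highest level.

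Among sodium and calcium channel and beta protocadherin genes, more were lower than higher in both sets. Of 19 sodium and calcium channel genes, 8 were lower and 0 higher in both sets, and 3 were non-overlapping and lower (15.8%, against 3.94%). The median log2 difference was 0.07 in set 1 and -0.42 in set 2. Cacna2d3, an auxiliary calcium channel subunit, had 25.9 and 25.3 FPKM in KO2 and 24.2 and 19.3 FPKM in KO3, against 35.8 and 32.1 FPKM in WT1 and 26.7 and 26.6 FPKM in WT2. Of 18 beta protocadherins, adhesion proteins of a clustered family whose near-identical members can split reads, 9 were lower and 1 higher in both sets and 2 were non-overlapping and lower (11.1%). Pcdhb2 had 0.945 and 0.651 FPKM in KO2 and 0.898 and 1.19 FPKM in KO3, against 1.65 and 1.45 FPKM in WT1 and 2.81 and 1.63 FPKM in WT2. Monoamine genes were higher in both sets in 8 of 10 cases and lower in 0, but none was non-overlapping. Th, the rate-limiting enzyme of dopamine synthesis, had a log2 difference of 1.71 in set 1 and 0.00 in set 2. Of 15 cholesterol synthesis genes, 2 were higher and 7 lower in both sets, against 27.1% and 18.5% of all genes. Their median log2 difference was -0.09. Non-overlapping were 1 higher (6.67%, against 9.35%) and 2 lower (13.3%, against 3.94%). After quantile scaling 0 were higher (against 6.51% of all genes) and 4 lower (26.7%, against 6.77%). After median-of-ratios scaling 0 were higher (against 7.32%) and 3 lower (20%, against 6.68%).

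The E19.5 libraries gave a further comparison that shares no library with the adult ones. They held KO2 brains with the same H19-DMR and IG-DMR deletions (2 libraries) and wild-type brains (2 libraries) of that stage, just before birth. A further E19.5 genotype, KO7 (2 libraries), had lost 7 other control regions, the Snrpn-DMR, Peg3-DMR, Kcnq1-DMR, Grb10-DMR, Igf2r-DMR, Nespas-DMR and Gnas-DMR. It entered the filter and the estimate of the spread but not the difference. There limma called 427 of 13624 genes (3.13%), 241 higher and 157 lower among the 12681 also tested in adults. Of these 12681 genes, called or not, 6048 lay higher in KO2 than in wild type, and the median log2 difference was -0.02. Of 15 glucocorticoid response genes, 13 were higher, 6 were called higher and 0 lower, with a median log2 difference of 0.54. Sult1a1 rose by 1.32 (adjusted p 0.0131 in limma), Pdk4 by 0.97 (0.0301) and Mt2 by 1.87 (0.0118), whereas Sgk1 differed by 0.15 (0.506) and Fkbp5 by 0.04 (0.86). Of 13 hypoxia genes, 3 were called higher and 1 lower. Slc2a1 rose by 1.43 (adjusted p 0.00201) and Hif3a by 1.56 (0.00279) at this stage, but Txnip fell by 2.49 (0.000829), opposite to its direction in both adult knockouts.

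The list counts at E19.5 stand beside 241 genes called higher and 157 called lower among the 12681 also tested in adults. Of the 15 unfolded protein and integrated stress genes, 3 were called higher in the embryonic knockout, Atf4 among them (0.47, adjusted p 0.0355 in limma). Hspa5 differed by -0.37 (adjusted p 0.118 in limma). Of the red cell genes, 5 of 6 were higher and 0 were called, with a median of 0.92 on the log2 scale. Striatal genes, 10 of 12, were higher there, 1 of them called, and 0 were called lower. All 15 cholesterol synthesis genes were lower in embryonic KO2, 9 of them called. All 18 beta protocadherins were lower and 0 were called. Markers of glia were higher in the same comparison. All 12 astrocyte genes were higher, 4 of them called, with a median of 0.72 on the log2 scale, and all 11 oligodendrocyte and myelin genes were higher, 4 of them called, with a median of 0.91. Their part in the differences of the stress and glucocorticoid genes and of Serpina3n at this stage was not tested. Isg20 rose by 1.36 (adjusted p 0.026) and H2afv by 0.50 (0.0466), Cebpd rose by 1.32 (0.0131) and Serpina3n by 1.75 (0.0127). Rasgrf1 fell by 2.38 (adjusted p 0.0135), and Igf2 differed by -0.43 (adjusted p 0.278).

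Xist, the RNA that silences one X chromosome in females, had 41.3 and 34.1 FPKM in KO2 and 43.7 and 21.5 FPKM in KO3, against 45.7 and 48.3 FPKM in WT1 and 72.6 and 59.1 FPKM in WT2. All 4 knockout libraries lay below all 4 wild-type libraries. The log2 difference was -0.69, and the exact permutation test within sets gave p = 0.0556 (2-sided, n = 4 each), the smallest that 36 relabellings allow. The use of strand in the deposited values is not stated, so reads of Xist and of its antisense partner Tsix cannot be told apart.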

How the data were processed

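Poly(A)-selected RNA of mouse brain was sequenced, and each library's gene values are FPKM as deposited by the authors. Cufflinks 2.2.1, TopHat2 2.1.1, CASAVA and the build mm9 were used, per the submitters' processing notes, which state no role or order. Annotation, strand setting and filters: not given in the sources used here. The headers of the 4 set 2 columns lack the word FPKM, and these columns were taken as FPKM like the others. FPKM values did not fall on steps of whole reads, so depth is unknown and no count test was run.

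Genes with at least 1 FPKM in 4 or more of the 8 adult libraries were kept, and log2(FPKM + 1) was fitted with limma 3.58.1 (trended empirical Bayes, R 4.3.3) with knockout and wild-type set as terms. P-values were 2-sided and Benjamini-Hochberg adjusted over all genes tested. A gene counted as called at an adjusted p under 0.05 with the same sign in both sets. Differences on this scale understate the fold change of low genes. E19.5 libraries were fitted apart, with at least 1 FPKM in 2 or more of 6, and single summed values were tested by exact permutation within sets. The fits were tested on simulated data. The pairing of KO2 with WT1 and of KO3 with WT2 follows the numbering of the sets and is not spelled out in the labels. Replicate numbers are shared between groups, and deviations of same-numbered libraries correlated at 0.355 in set 1 and 0.152 in set 2.

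The comparison and the gene lists were chosen with earlier results of these data known. Named genes were the 12 in each direction with the smallest p among those not overlapping within either set, all genes of the 3 deleted regions, and up to 4 tested members of each list described with the smallest p. Any further gene is marked in the text as a later choice. Promoters come from RefSeq on GRCm38.p6, whose coordinates were not mixed with those of the authors' build.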

Additional observations from a re-analysis of the deposited data

Results flagged for a closer look

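Among 210 groups of 4 libraries, the 4 knockouts or the 4 wild types for each gene named, 9 held a library far from the rest by Dixon's test at its 95% critical value, where chance gives about 1 in 20. In KO3 replicate 2 lay 6 of them. Cebpd stood there at 10.97 FPKM, against 2.503 to 3.194 FPKM in the other knockout libraries. Tmed3 stood at 36.04 FPKM, against 20.48 to 22.3 FPKM. Rpl5 stood at 166.4 FPKM, against 128.4 to 133.3 FPKM, and Pgk1 at 287.4 FPKM, against 238.5 to 242.5 FPKM. Serpina3n and Pdk4 were low there, Serpina3n at 16.74 FPKM, against 34.45 to 36.68 FPKM, and Pdk4 at 3.278 FPKM, against 6.001 to 6.654 FPKM. Among wild-type libraries, H2-K1 stood at 15.52 FPKM in WT2 replicate 2, against 7.812 to 8.812 FPKM in the other wild-type libraries. Hspa1b stood at 3.302 FPKM in WT2 replicate 1, against 1.32 to 1.531 FPKM. Calb2 stood at 33.07 FPKM in WT1 replicate 1, against 69.08 to 75.72 FPKM.

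Among the genes at the deleted regions, 3 lay without overlap below wild type in KO2 and above wild type in KO3. The difference on the log2 scale was larger in set 2 than in set 1 by 0.678 for Begain, 0.8802 for Ctsh and 1.1023 for Tmed3. The interaction of knockout and set had an adjusted p of 0.217, 0.19 and 0.192 in limma, so the difference did not pass in any of the 3.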

How the results depend on the processing

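With the set as a block, the count of genes called in both adult knockouts was 0 under each other pseudocount, filter, scaling and limma setting. With the replicate block, set and number together, it was also 0, with 1185 genes at an unadjusted p under 0.05 and a smallest adjusted p of 0.52. It was 0 as well without the set block. All 14 libraries gave 474 higher and 64 lower. KO2 against WT1 alone gave 4 higher and 3 lower, and KO3 against WT2 alone 1 higher and 2 lower. Leaving out 1 library gave 0 to 2 higher and 0 lower: Hba-a1 and Hbb-b1 without WT1 replicate 2, and Sgk1 without WT2 replicate 1. Of 2255 values of the 96 named genes with a shared direction, over 24 settings, 0 changed direction. Named genes with opposite signs in the sets were not counted. For the genes counted, the filter, single-set, block, limma, group-mean and 14-library settings could not have reversed the direction. For those that were non-overlapping, neither could another pseudocount or leaving out 1 library. The absence of reversals is therefore mostly fixed in advance, and only the scalings could have reversed every gene counted.

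Genes in which the knockouts differed numbered 0, against 1 with a pseudocount of 0.1 (Amd1), 6 with no filter, 10 with all 14 libraries and 0 to 4808 with 1 library left out. The value of 4808 came without KO3 replicate 1, which leaves replicate 2 alone and assumed to vary like the other groups. Without KO2 replicate 2, KO3 replicate 2 or WT1 replicate 2 the count was 2.

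The share with the same sign was 32.46% with no filter and 43.87% to 50.81% with 1 library left out. Non-overlapping lower genes numbered 307 with the filter at 5 FPKM, 890 after quantile scaling, 879 after median-of-ratios scaling and 558 to 1101 with 1 library left out, and higher ones 1313 to 2006. The cause was not tested. Unknown depth limits what can be said of low genes, and with 2 libraries a group a gene that did not pass is not shown to be equal.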

Other observations

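Neuronal and regional genes outside the striatum had little in common between the adult knockouts. Of 18 immediate early genes, which report recent neuronal activity, 2 were higher and 3 lower in both sets and none was non-overlapping in either direction, with medians of 0.27 in set 1 and -0.51 in set 2 on the log2 scale. None of 20 genes of synaptic vesicle release was non-overlapping with a shared direction. Of 20 glutamate receptor genes, 2 were non-overlapping and lower (10%, against 3.94% of all genes) and 0 higher. Among potassium channel genes, 10 of 25 were non-overlapping in opposite directions (40%, against 14.6% of all genes) and 0 with a shared one. Of 13 genes of imprint maintenance and DNA methylation, 6 were non-overlapping in opposite directions, against 14.6% of all genes. In a shared direction 1 was higher and 1 lower (7.69% each, against 9.35% and 3.94%).

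Hippocampal genes were higher in part, with 3 of 8 non-overlapping (37.5%, against 9.35%) and 0 lower, but their median was 0.67 in set 1 and -0.08 in set 2. Hypothalamic genes had medians of -0.47 in set 1 and 0.70 in set 2. Of 18 clock genes, 2 were non-overlapping and lower (11.1%, against 3.94%) and 0 higher. Of 15 genes of thyroid hormone handling and response, 1 was non-overlapping and higher (6.67%, against 9.35%) and 0 lower. In both sets 5 were higher and 4 lower, against 27.1% and 18.5% of all genes.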
